A study of Mus musculus with 27 samples.

Results

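The genes described here are 9 that are widely used to mark the fibroblasts of the meninges, the membranes that wrap the brain: Dcn, Lum, Ogn, Foxc1, Foxc2, Ptgds, Slc6a13, Igf2 and Aldh1a2. They were taken by gene name from a table of 51826 features, in which each name had a row, and all 9 passed the filter on low counts that left 19969 genes for testing. RNA was measured in hippocampi of ICR mice, an outbred strain, in 4 groups that cross surgery with treatment. Sham-operated mice given saline gave 3 mRNA libraries (sham saline), and sham-operated mice given xanthohumol (Xmo, a prenylated flavonoid of hops) gave 4 (sham Xmo). Ovariectomized mice (OVX) given saline gave 4 libraries (OVX saline) and OVX mice given Xmo gave 4 (OVX Xmo), and a separate set of 12 miRNA libraries had 3 per group. The labels give no age, dose, route or time after surgery, and do not say whether each library is 1 animal, so p-values measure the spread between these libraries, which may be partly technical.

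Meningeal fibroblasts lie in the pia, arachnoid and dura and around the vessels that enter the brain, and the pia covers the hippocampus as well as the neocortex. They lay down collagens and small leucine-rich proteoglycans, make retinoic acid during forebrain development, secrete prostaglandin D synthase and IGF-II, and carry solute transporters at the border with cerebrospinal fluid. Several of these genes are shared with neighbours: Ptgds is also made by oligodendrocytes and choroid plexus, and Igf2 by choroid plexus. In bulk tissue a lower level from fewer cells of a type cannot be told apart from less RNA per cell.

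Promoter windows of 250 bases before to 50 bases after the transcription start were found in RefSeq (GRCm38.p6) for 6 of the 9 genes: Ogn, Foxc1, Ptgds, Slc6a13, Igf2 and Aldh1a2. Those of Ogn, Ptgds and Aldh1a2 are shown because these genes belonged to the pairs whose levels moved together over the libraries, described further on, and have 1 window each. Slc6a13, also in such pairs, has 3 windows and is not shown. Capitals mark matches, on either strand, to the TATA box TATAAA, the CCAAT box CCAAT, the forkhead core TAAACA or the nuclear receptor half-site AGGTCA.
Ogn (chr13:49607765-49608064, plus strand): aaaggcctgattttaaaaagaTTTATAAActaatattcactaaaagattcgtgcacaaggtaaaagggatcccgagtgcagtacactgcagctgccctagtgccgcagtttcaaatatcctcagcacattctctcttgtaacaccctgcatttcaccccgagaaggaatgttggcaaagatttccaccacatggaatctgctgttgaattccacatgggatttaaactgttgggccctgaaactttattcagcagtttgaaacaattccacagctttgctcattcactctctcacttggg
Ptgds (chr2:25469700-25469999, minus strand): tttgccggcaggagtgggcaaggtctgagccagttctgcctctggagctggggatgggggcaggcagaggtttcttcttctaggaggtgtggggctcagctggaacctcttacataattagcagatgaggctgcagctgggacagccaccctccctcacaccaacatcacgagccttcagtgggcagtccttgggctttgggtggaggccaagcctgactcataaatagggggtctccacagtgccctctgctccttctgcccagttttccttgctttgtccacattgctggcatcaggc
Aldh1a2 (chr9:71215539-71215838, plus strand): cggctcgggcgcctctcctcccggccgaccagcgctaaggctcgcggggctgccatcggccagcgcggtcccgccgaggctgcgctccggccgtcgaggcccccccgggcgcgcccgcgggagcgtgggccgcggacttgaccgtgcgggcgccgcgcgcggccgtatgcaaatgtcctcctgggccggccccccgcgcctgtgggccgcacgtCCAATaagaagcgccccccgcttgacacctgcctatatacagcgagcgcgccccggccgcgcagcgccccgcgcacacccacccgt
The Ogn window held TATAAA on both strands in overlapping matches, far upstream of the start at -229 and -227, and was the poorest in G and C of the 3 at 42.3%. The Aldh1a2 window held 1 CCAAT match 36 bases before the start and had a G and C content of 78%, against a median of 52.7% over the 32851 windows searched. Windows of 1 chromosome, which holds none of the 9 genes, were left out of that search. The Ptgds window, at 57.7% G and C, held none of the 4 motifs. Over the 32851 promoter windows searched, TATAAA was present in 13.6%, CCAAT in 37.4%, TAAACA in 13.4% and AGGTCA in 16.3%. No member's window held the forkhead core, and AGGTCA was found only in 1 of the 3 Slc6a13 windows and 1 of the 4 Igf2 windows among the members' windows searched. These matches describe letters and say nothing of which factor binds there.

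Igf2 also carries a miRNA hairpin within its span on the same strand, miR-483, and the neighbouring imprinted gene H19 carries miR-675. Their mature sequences are shown because they gave a readout of the Igf2 region in the separate miRNA libraries. Capitals mark the seed, bases 2 to 8.
miR-483-5p: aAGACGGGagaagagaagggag
miR-483-3p: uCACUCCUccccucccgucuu
miR-675-3p: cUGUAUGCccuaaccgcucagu
None of the other miRNAs in the deposited table shared any of these seeds.

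The mRNA libraries held between 20848661 and 39140593 counts. Transcripts of the mitochondrial genome took 20.2% to 35.4% of counts in sham saline and 12.4% to 20.6% in the other groups. Levels are given as CPM, counts relative to the library total, after TMM scaling, which makes most genes centre on the same level across libraries, and levels of different genes are compared only in deposited TPM, which allow for gene length. Before that scaling, the sham saline libraries sat lower for most genes. The median gene was 0.33 higher (log2) in OVX saline than in sham saline by unscaled CPM and 0.61 higher by deposited TPM, against 0.01 after TMM scaling. Comparisons with sham saline therefore depend on the scale, and members are read against the median gene. Sums of pyramidal neuron markers were 3899 to 5835 CPM over all libraries, so RNA of pyramidal neurons was abundant in each. The sum does not tell hippocampal from other pyramidal neurons.

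The 9 genes spanned a wide range of abundance. By mean deposited TPM over 15 libraries, Ptgds stood at 713 ± 270 (SD, n = 15), followed by Dcn at 37.2 ± 16.3 and Igf2 at 20.7 ± 11.98. Ogn (6.13 ± 2.40) and Slc6a13 (5.68 ± 2.42) were within 1 SD of each other, as were Lum (3.93 ± 1.77) and Aldh1a2 (3.605 ± 1.52). Foxc1 stood at 1.04 ± 0.256 TPM and Foxc2 was the scarcest at 0.392 ± 0.233, with only 4 to 38 counts per library. The coefficient of variation of CPM over the 15 libraries ran from 24.5% for Foxc1 to 68.6% for Igf2, each above the median of 20.2% for all tested genes.

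**Figure D1:**
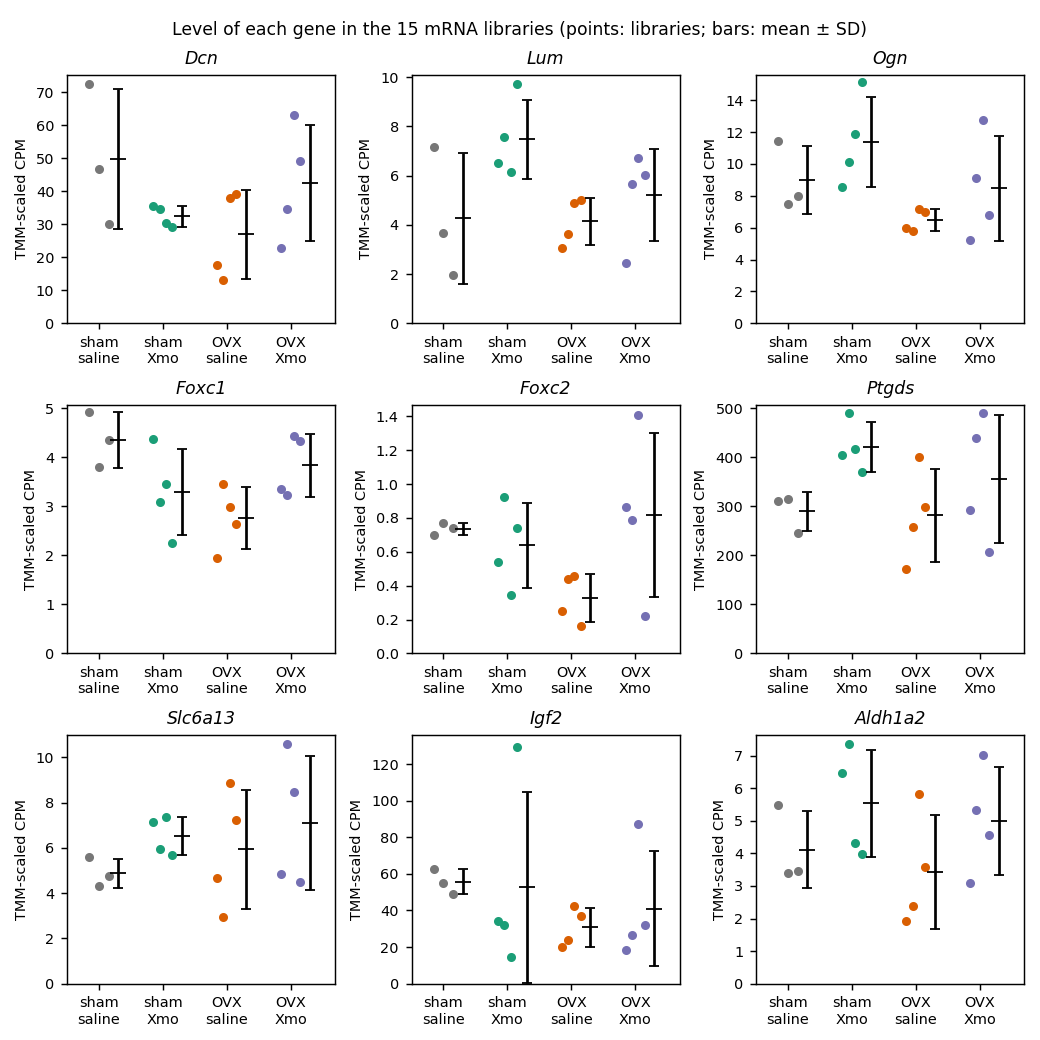
TMM-scaled CPM (vertical axes, from 0) of the 9 meningeal fibroblast genes in the 15 mRNA libraries by group; points are libraries and bars give the mean and SD of each group of 3 or 4. OVX saline libraries lie below all 3 sham saline libraries for Ogn, Foxc1, Foxc2 and Igf2, while the OVX saline and OVX Xmo libraries overlap in every panel.

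None of the 9 genes passed the test in any of the 5 comparisons (edgeR quasi-likelihood test, Benjamini-Hochberg adjusted p under 0.05 over 19969 genes), and DESeq2 called none of them either. At an unadjusted p under 0.05 edgeR had 3 of the 9 in OVX saline against sham saline, 2 in OVX Xmo against OVX saline, 0 in sham Xmo against sham saline, 0 in OVX Xmo against sham Xmo and 3 in the interaction of surgery and Xmo. At that same threshold stood 24.7%, 4.18%, 18.4%, 10.2% and 17.4% of all tested genes, in the same order. Over all genes the adjusted test called 6.24% in OVX saline against sham saline, 0% in OVX Xmo against OVX saline, 1.51% in sham Xmo against sham saline, 0.01% in OVX Xmo against sham Xmo and 0.416% in the interaction. With 3 or 4 libraries per group, the 95% intervals of single genes were wide: for Igf2 the interval of OVX saline against sham saline ran from -2.15 to 0.43 (log2), and for Ptgds from -0.63 to 0.54. Absence of a call therefore does not show that the levels were alike.

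**Figure D2:**
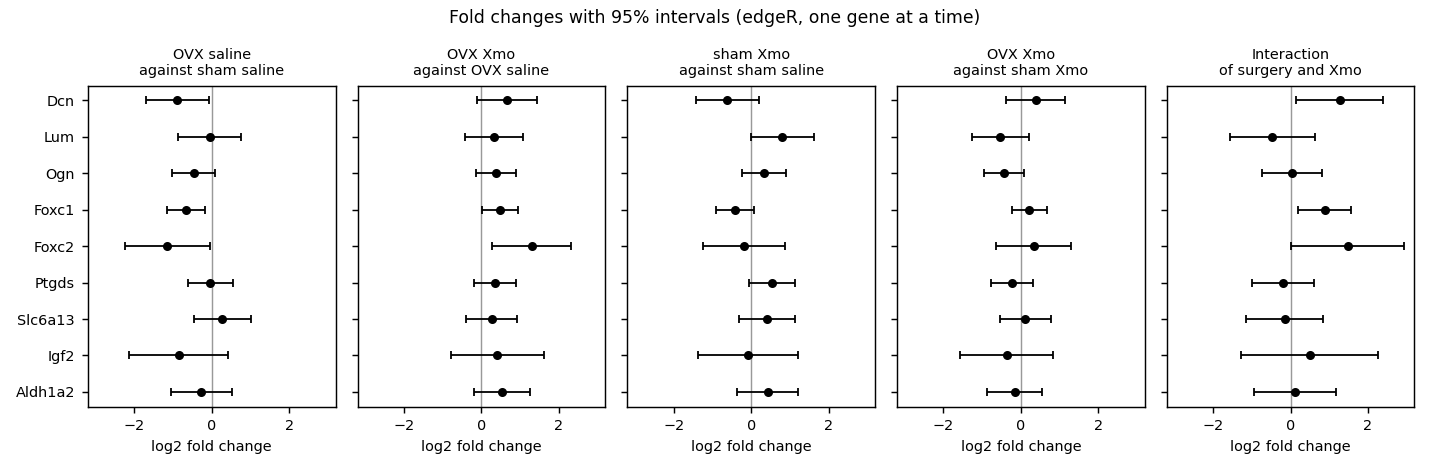
Fitted log2 fold changes (horizontal axis) of the 9 genes in 4 comparisons and in the interaction, with 95% intervals for 1 gene at a time, not adjusted over genes. Estimates lie left of 0 for 8 of 9 genes in OVX saline against sham saline and right of 0 for all 9 in OVX Xmo against OVX saline; no gene passed the adjusted test.

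The small leucine-rich proteoglycans come first. Decorin (Dcn), a collagen-binding proteoglycan that sequesters growth factors such as TGF-beta, lies at 10:97479609-97518143 (plus strand, GRCm38), just before lumican (Lum, 10:97565128-97572703), a keratan sulfate proteoglycan that spaces collagen fibrils. Dcn stood at 72.3, 46.7 and 30.2 CPM in sham saline libraries 1 to 3 and at 17.6, 13.2, 37.8 and 39.1 CPM in OVX saline libraries 1 to 4. It was at 35.5, 34.7, 30.2 and 29.3 CPM in sham Xmo, while OVX Xmo gave 22.9, 34.7, 63.1 and 49.1 CPM. OVX saline libraries 1 and 2 were the lowest of the 15, and the groups overlapped in each comparison. The Dcn log2 fold change was -0.89 (SE 0.38, adjusted p = 0.169, edgeR) in OVX saline against sham saline and 0.66 (SE 0.36, adjusted p = 0.998) in OVX Xmo against OVX saline. The first was -0.51 without sham saline 1, and the second was 0.42 without OVX saline 2 and 0.40 without OVX Xmo 3. Its interaction estimate, 1.27 (SE 0.53), had an edgeR adjusted p of 0.232.

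Lum did not share that pattern. It was at 7.16, 3.65 and 1.97 CPM in sham saline, then 6.503, 7.55, 6.13 and 9.70 CPM in sham Xmo. OVX saline had 3.06, 3.63, 4.88 and 5.001 CPM, and OVX Xmo had 2.46, 5.67, 6.71 and 6.004 CPM. The 3 sham saline libraries were spread over most of the range of all 15. Its largest estimate was in sham Xmo against sham saline, at 0.80 (SE 0.38), with an edgeR adjusted p of 0.277 and overlapping groups; it was 1.42 without sham saline 1 and 0.46 without sham saline 3. Against sham saline, OVX saline gave -0.05 (SE 0.38, adjusted p = 0.948), and 0.56 without sham saline 1.

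Osteoglycin (Ogn, also called mimecan), a proteoglycan of connective tissue, lies at 13:49608046-49624501 (plus strand) beside Omd, Aspn and Ecm2, its relatives. The Ogn span lies wholly inside Cenpp on the other strand. The sources used here do not say whether strand entered the counting, so reads of the pair could be mixed. Cenpp itself had at most 41 counts per library and averaged 0.808 unscaled CPM. Ogn was at 11.5, 7.49 and 8.005 CPM in sham saline and at 5.99, 5.81, 7.19 and 6.99 CPM in OVX saline, without overlap. The 2 Xmo groups stood at 8.54, 10.1, 11.9 and 15.1 CPM (sham) and 5.21, 9.13, 12.7 and 6.79 CPM (OVX). The OVX saline against sham saline estimate was -0.47 (SE 0.27, edgeR adjusted p = 0.289). OVX Xmo against OVX saline gave 0.38 (SE 0.25, adjusted p = 0.998), and sham Xmo against sham saline 0.34 (SE 0.27, adjusted p = 0.528). Single libraries moved these: the first was -0.26 without sham saline 1, the second 0.12 without OVX Xmo 3, and the third 0.16 without sham Xmo 4 and 0.56 without sham saline 1.

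Of 14 other genes of the small leucine-rich family, 12 could be tested and none passed in any comparison. Negative estimates in OVX saline against sham saline were found for 10 of the 12, with a median of -0.54, and in the interaction 10 of 12 had positive ones, with a median of 0.46; the medians over all tested genes were 0.01 and -0.02. Kera, the keratocan gene next to Lum, was at 0 in 11 libraries and had at most 4 counts. Epyc, the gene after it, had 16 to 74 counts, and Omd, osteomodulin, had 9 to 58.

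The forkhead transcription factors Foxc1 (13:31806633-31812476, plus strand) and Foxc2 (8:121116171-121118895, plus strand) act in the mesenchyme from which meninges and head vessels form, and loss of Foxc1 disrupts the meninges. Foxc1 was at 4.92, 3.80 and 4.35 CPM in sham saline and at 1.95, 3.47, 2.99 and 2.64 CPM in OVX saline, without overlap. It was at 4.37, 3.09, 3.47 and 2.25 CPM in sham Xmo, while OVX Xmo gave 3.35, 3.23, 4.44 and 4.33 CPM. Foxc1 had the smallest adjusted p of the 9 in OVX saline against sham saline, 0.0975 by edgeR, at a log2 fold change of -0.66 (SE 0.23). Its estimate was 0.47 (SE 0.22, adjusted p = 0.998) in OVX Xmo against OVX saline, -0.41 (SE 0.23, adjusted p = 0.368) in sham Xmo against sham saline, and 0.88 (SE 0.32, adjusted p = 0.179) in the interaction.

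Foxc2 was near the limit of counting. Sham saline held 0.699, 0.769 and 0.739 CPM and OVX saline 0.250, 0.442, 0.456 and 0.163 CPM, again without overlap. Sham Xmo held 0.542, 0.925, 0.347 and 0.742 CPM, and OVX Xmo 0.863, 0.786, 1.41 and 0.224 CPM. In OVX Xmo 3 libraries were above every OVX saline library and library 4, with 6 counts, was below 3 of the 4. The log2 fold changes were -1.15 (SE 0.52, edgeR adjusted p = 0.185) in OVX saline against sham saline and 1.296 (SE 0.48, adjusted p = 0.998) in OVX Xmo against OVX saline. The interaction estimate was 1.48 (SE 0.69, adjusted p = 0.284).

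Among 13 other forkhead genes, 12 could be tested. In OVX saline against sham saline 2 of them fell: Foxp1, a factor of neurons and other cells, by 0.91 (SE 0.20, edgeR adjusted p = 0.0224), and Foxf2, a factor of brain pericytes and mural cells, by 0.86 (SE 0.24, adjusted p = 0.0487). In all, 11 of the 12 estimates were negative, with a median of -0.30. No forkhead gene of the list passed in the other 4 comparisons. Both calls depended on single libraries. Foxp1 did not pass without sham saline 3, OVX saline 2 or OVX saline 4 (largest adjusted p 0.0848). Foxf2 did not pass without any 1 of the 7 libraries compared, nor without sham Xmo 2 or 3 or OVX Xmo 2 or 3 (largest adjusted p 0.124).

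Aldh1a2 (9:71215789-71296243, plus strand) encodes retinaldehyde dehydrogenase 2, which makes retinoic acid and is concentrated in meninges in the brain. Its levels were 5.48, 3.41 and 3.45 CPM in sham saline, then 6.47, 7.35, 4.33 and 3.98 CPM in sham Xmo. OVX saline had 1.93, 2.38, 5.82 and 3.58 CPM, and OVX Xmo had 3.08, 5.34, 7.03 and 4.55 CPM. All groups overlapped. The estimate was -0.27 (SE 0.37, edgeR adjusted p = 0.691) in OVX saline against sham saline, 0.54 (SE 0.34, adjusted p = 0.998) in OVX Xmo against OVX saline and 0.42 (SE 0.37, adjusted p = 0.58) in sham Xmo against sham saline. Leaving out 1 library moved the first from -0.68 (without OVX saline 3) to -0.0047 (without sham saline 1), the second from 0.34 to 0.92 (without OVX saline 3) and the third from 0.23 (without sham Xmo 2) to 0.69 (without sham saline 1).

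Of 18 other genes of retinoic acid synthesis, breakdown, binding and receptors, 16 were tested, and 1 passed in 1 comparison. Rxrb, a retinoid X receptor, rose by 0.41 (SE 0.11, edgeR adjusted p = 0.0398) in OVX saline against sham saline, where 8 of the 16 estimates were positive. That call was lost without sham saline 2 or 3, without any OVX saline library, and without sham Xmo 2 or 3 or OVX Xmo 2 or 3 (largest adjusted p 0.142). Cyp26a1 and Cyp26c1, which break retinoic acid down, were too low to test.

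Ptgds (2:25466709-25470046, minus strand) encodes lipocalin-type prostaglandin D synthase, one of the main proteins of cerebrospinal fluid. It was at 310.1, 315.8 and 244.7 CPM in sham saline and at 405, 491, 417 and 371 CPM in sham Xmo, so all 4 sham Xmo libraries were above all 3 sham saline libraries. OVX saline had 172, 258, 399.8 and 299 CPM and OVX Xmo had 292, 439, 489.8 and 206 CPM, with wide overlap. The estimate in sham Xmo against sham saline was 0.54 (SE 0.28, edgeR adjusted p = 0.321). It was -0.04 (SE 0.27, adjusted p = 0.944) in OVX saline against sham saline and 0.34 (SE 0.25, adjusted p = 0.998) in OVX Xmo against OVX saline, the last running from 0.15 (without OVX Xmo 3) to 0.54 (without OVX saline 3). A list of 13 other genes covered prostaglandin and thromboxane synthesis, supply, reception and breakdown, not only of D2. Of these 12 were tested and none passed in any comparison. Their median estimates lay between -0.06 and 0.14.

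Slc6a13 (6:121300227-121337733, plus strand), a GABA and taurine transporter of leptomeningeal cells, liver and kidney, was at 5.59, 4.32 and 4.76 CPM in sham saline and at 7.15, 5.96, 7.38 and 5.69 CPM in sham Xmo, without overlap. OVX saline held 4.68, 2.96, 8.88 and 7.24 CPM and OVX Xmo 4.86, 10.6, 8.48 and 4.48 CPM. It was the 1 member with a positive estimate in OVX saline against sham saline, 0.28 (SE 0.34, edgeR adjusted p = 0.663), which was -0.000514 without OVX saline 3. In sham Xmo against sham saline the estimate was 0.42 (SE 0.34, adjusted p = 0.554). None of 8 other genes of GABA, taurine and creatine transport and of GABA breakdown passed in any comparison.

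Igf2 (7:142650766-142666816, minus strand) encodes IGF-II, a growth factor of the imprinted H19 region. Its span is overlapped over 44.4% by Igf2os on the other strand, which averaged 0.40 unscaled CPM with at most 68 counts. Igf2 was at 62.7, 55.1 and 49.1 CPM in sham saline and at 19.8, 23.9, 42.4 and 36.7 CPM in OVX saline, without overlap. Sham Xmo held 34.4, 32.2, 14.3 and 129 CPM and OVX Xmo 18.2, 26.6, 87.1 and 31.9 CPM. By CPM each Xmo group thus had 1 library far above its others. Deposited TPM differed: 14.6, 14.0, 20.1 and 53.4 in sham Xmo, and 12.9, 27.6, 40.4 and 14.5 in OVX Xmo. Sham Xmo 3, the lowest of the 15 by CPM, was above sham Xmo 1 and 2 by TPM. The fold changes rest on counts, and the cause of this difference was not tested. The estimate in OVX saline against sham saline was -0.86 (SE 0.60, edgeR adjusted p = 0.404), in OVX Xmo against OVX saline 0.41 (SE 0.57, adjusted p = 0.998) and in sham Xmo against sham saline -0.08 (SE 0.61, adjusted p = 0.963). Without OVX Xmo 3 the second was -0.26, and without sham Xmo 4 the last was -1.06. H19 had 3 to 27 counts per library.

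Of 14 other genes of the IGF axis (ligand, receptors, IGF-binding proteins, the mRNA-binding Igf2bp genes and H19), 13 were tested. In OVX saline against sham saline 2 fell: Igfbp7, a binding protein made by endothelium, by 1.40 (SE 0.31, edgeR adjusted p = 0.0224), and Igf1r, the IGF-I receptor, by 0.31 (SE 0.08, adjusted p = 0.0372). Igf1r also fell by 0.40 (SE 0.08, adjusted p = 0.0287) in sham Xmo against sham saline, a comparison that shares the sham saline libraries. The Igfbp7 call was lost without sham saline 2 or OVX saline 2, 3 or 4 (largest adjusted p 0.0854). The Igf1r calls were lost without any 1 of the 7 libraries in the first comparison (largest adjusted p 0.103) and without sham saline 2 or 3 or sham Xmo 2, 3 or 4 in the second (largest adjusted p 0.122). Polr2b overlaps the end of Igfbp7 on the other strand, over 0.145% of the Igfbp7 span. Polr2b had far more reads, at a mean of 81.3 against 11.4 unscaled CPM, which do not allow for gene length.

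The miRNA libraries held 9660869 to 10962296 reads. miR-483-5p had 48, 17 and 45 reads in the sham saline libraries; sham Xmo libraries had 21, 10 and 37. The OVX saline libraries had 15, 15 and 33 reads, and those of OVX Xmo had 32, 38 and 44. The estimate was -0.82 (SE 0.47, edgeR adjusted p = 0.886 over 605 miRNAs) in OVX saline against sham saline and 0.89 (SE 0.47, adjusted p = 0.692) in OVX Xmo against OVX saline. In the interaction it was 1.57 (SE 0.66), with an unadjusted p of 0.0369 and an adjusted p of 0.694. Nothing states that the mRNA and miRNA libraries came from the same animals. Over all miRNAs the test called 0.165% in OVX Xmo against OVX saline and 0% in the other 4 comparisons. miR-483-3p, with 0 to 7 reads, was too low to test, and miR-675-3p passed in no comparison.

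By comparison, OVX saline against sham saline had estimates below 0 for 8 of the 9 members, with a median of -0.47 beside 0.01 for all tested genes. Ogn, Foxc1, Foxc2 and Igf2 were lower in every OVX saline library than in every sham saline library, that is 4 of 9, against 24.5% of all tested genes without overlap in either direction. On unscaled CPM 1 member was without overlap and on deposited TPM 0. Between scales, directions were compared by the difference of mean log2 levels and not by the fitted estimate. On that measure TMM-scaled CPM had 2 members higher in OVX saline (Lum and Slc6a13) and 7 lower, at a median of -0.44. By deposited TPM 5 of the 9 (Lum, Ogn, Ptgds, Slc6a13 and Aldh1a2) were on average higher in OVX saline. The median difference of the 9 was 0.17, still below the 0.61 of the median gene. By unscaled CPM 3 were higher (Lum, Ptgds and Slc6a13), at a median of -0.12 beside 0.33.

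In OVX Xmo against OVX saline all 9 estimates were above 0, with a median of 0.41 beside 0.003 for all tested genes. The 9 were higher on average on unscaled CPM and deposited TPM as well. None was without overlap, against 3.11% of all genes, and edgeR called 0 genes of 19969 in this comparison (834 had an unadjusted p under 0.05, and DESeq2 called 3). This comparison shares the OVX saline libraries with the one before it, so opposite signs in the 2 are not independent. OVX saline libraries 1 and 2 had none of the 9 genes above its median over all libraries, while OVX Xmo library 3 had all 9.

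In sham Xmo against sham saline 5 of the 9 estimates were above 0 (Lum, Ogn, Ptgds, Slc6a13 and Aldh1a2), with a median of 0.34 beside 0.03. Ptgds and Slc6a13 were without overlap, against 14.2% of all genes. By unscaled CPM 6 were higher and by deposited TPM all 9, where the median gene was itself 0.32 and 0.54 higher. Between the 2 Xmo groups (OVX Xmo against sham Xmo) 4 of the 9 were above 0 (Dcn, Foxc1, Foxc2 and Slc6a13), with a median of -0.15; none was without overlap, against 5.88% of all genes, and the smallest adjusted p was 0.567 (edgeR, Ogn). The interaction had 6 of 9 above 0 and a median of 0.12, led by Foxc2, Dcn and Foxc1.

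**Figure D3:**
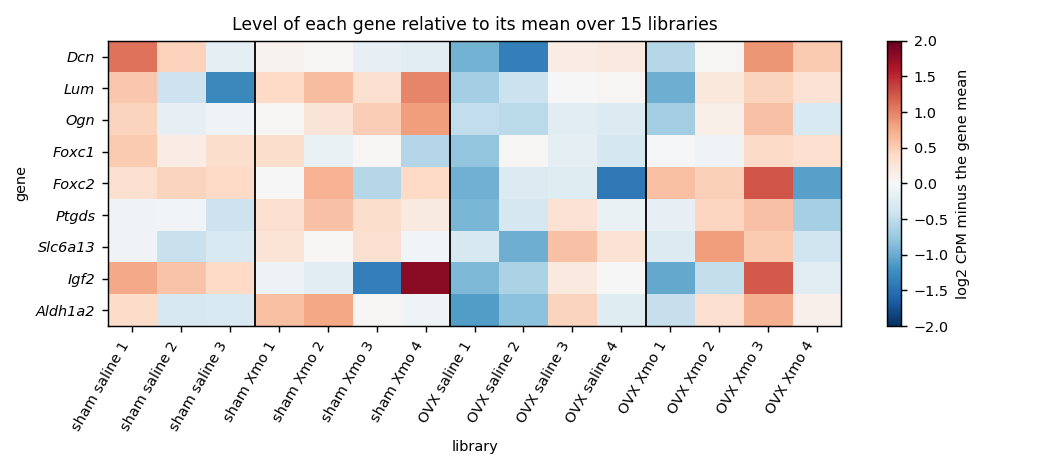
Level of each gene (rows) in each mRNA library (columns) as log2 CPM minus the mean of that gene over the 15 libraries; red is above and blue below the mean, and vertical lines part the 4 groups. Against the median of each gene, which is not the mean drawn here, OVX Xmo 3 is above in all 9 genes and OVX saline 1 and 2 in none. Foxc1 in OVX saline 2 is at that median. Sham Xmo 4 has the highest Lum, Ogn and Igf2.

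A list of 25 other meningeal genes (collagens, transporters, transcription factors and BMP ligands) was measured beside them. All 25 passed the filter, only Wnt6 was at 0 in any library (4 of 15), and none passed the test in any of the 5 comparisons. Their summed level was 162 to 174 CPM in sham saline, 167 to 270 CPM in sham Xmo, 127 to 195 CPM in OVX saline and 142 to 257 CPM in OVX Xmo, so the groups overlapped. Estimates below 0 numbered 16 of the 25 in OVX saline against sham saline, at a median of -0.11. Those above 0 numbered 22 of 25 in OVX Xmo against OVX saline, at a median of 0.29. The medians were 0.21 in sham Xmo against sham saline, -0.05 in OVX Xmo against sham Xmo and 0.11 in the interaction.

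The 9 genes varied together to a degree. Over the 15 libraries 35 of the 36 pairs had a positive Pearson r of log2 CPM, with a median of 0.456, and 6 pairs passed a two-sided permutation test (100000 resamples, Benjamini-Hochberg adjusted over 36 pairs). The share among pairs of all tested genes was not taken, so these counts may not be particular to the 9. The pair most alike was Ptgds and Aldh1a2 (r = 0.797, adjusted p = 0.00828; rho = 0.768, adjusted p = 0.02). Lum and Ogn, both proteoglycans but on different chromosomes, had r = 0.744 (permutation adjusted p = 0.029; rho = 0.789, adjusted p = 0.02). Dcn and Aldh1a2 had r = 0.712 (permutation adjusted p = 0.0335; rho = 0.618, adjusted p = 0.0662).

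Aldh1a2 was in 4 of the 6 pairs. With Slc6a13 it had r = 0.671 (permutation adjusted p = 0.0413; rho = 0.657, adjusted p = 0.0547) and with Lum r = 0.67 (permutation adjusted p = 0.0422; rho = 0.736, adjusted p = 0.0252). Ptgds and Slc6a13 had r = 0.696 (permutation adjusted p = 0.0335; rho = 0.743, adjusted p = 0.0251). Without the 2 libraries farthest from the median of the first gene, r of the 6 pairs was 0.61 to 0.842. By rho 5 pairs passed.

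Foxc1 had r between -0.02 and 0.18 against Lum, Ogn, Ptgds, Slc6a13 and Igf2, 0.35 against Foxc2, 0.465 against Aldh1a2 and 0.558 against Dcn. Dcn and Lum, which lie next to each other, had r = 0.48. When each library was expressed as its deviation from its group mean and permuted within groups, 31 of 36 pairs were positive (median r = 0.42) and none passed (smallest adjusted p = 0.0524, Dcn and Aldh1a2). The number of pairs that passed ranged from 0 without OVX saline 1 to 10 without sham Xmo 4, and was 23 on deposited TPM. The labels name no batch, and groups of 3 or 4 are too small for a correlation within each.

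**Figure D4:**
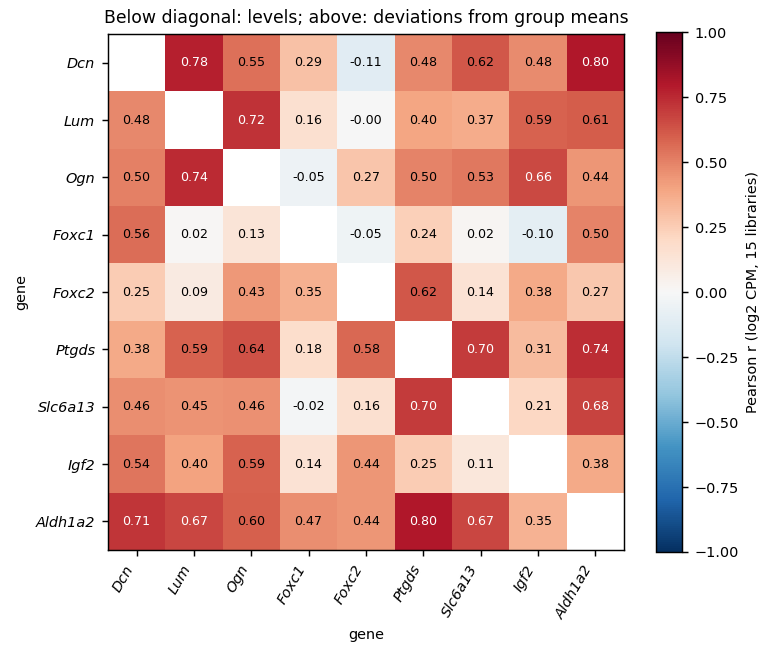
Pearson r between the log2 CPM of each pair of the 9 genes over 15 libraries; below the diagonal r of the levels, above it r of deviations from the group means. Aldh1a2 has r of 0.67 or more with Dcn, Lum, Ptgds and Slc6a13, and Foxc1 has r of 0.558 with Dcn but 0.18 or less with Lum, Ogn, Ptgds, Slc6a13 and Igf2.

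The genes outside the 9 whose levels were most like each member, by Pearson r over the 15 libraries, are given as a description; with 19969 genes compared, high values are found for any gene. For Ogn they were Slc13a4 (0.93), a sulfate transporter on the list of other meningeal genes, and Clic6 (0.91) and Slc4a5 (0.90), which are both choroid plexus markers. For Aldh1a2 they were Slc7a11 (0.88), the cystine and glutamate antiporter, Cldn14 (0.87) and Mrc1 (0.85), the mannose receptor of border-associated macrophages. For Slc6a13 they were Vtn (0.83), vitronectin, a pericyte marker in the brain, Kcnh6 (0.82) and Kdelr3 (0.81).

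For Ptgds they were Etnk2 (0.90), Dnase1l1 (0.90) and Itih2 (0.89), and for Lum Serpinb1b (0.87), Ccdc187 (0.86) and Igtp (0.86). For Foxc1 they were Zdbf2 (0.90), Gm26507 (0.87) and 4930453N24Rik (0.85), and for Foxc2 they included Zfp109 (0.84) and Tmem229b (0.81). For Dcn, Gm43185 (0.80) and Nr2f2 (0.79) were among them. For Igf2 they were Antxr1 (0.81), Phactr4 (0.77) and Dpp4 (0.77), the last being on the list of other meningeal genes. Igtp, Gm43185, Dnase1l1 and Kdelr3 overlap other genes, so their counts are uncertain.

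Markers of other cell types that a hippocampal dissection could hold were measured in the same libraries. The choroid plexus, which lies against the hippocampus in the ventricle, varied most: the summed level of its 15 markers was 213, 487 and 1317 CPM at the lowest, median and highest in sham saline. It was 134 to 8719 CPM in sham Xmo (median 1896), 85.6 to 489 CPM in OVX saline (median 134) and 84.8 to 1848 CPM in OVX Xmo (median 201). All 15 were detected in every library except Steap1, at 0 in 1. All 15 estimates were below 0 in OVX saline against sham saline (median -1.44) and above 0 in OVX Xmo against OVX saline (median 1.02) and in sham Xmo against sham saline (median 1.63). They were below 0 in OVX Xmo against sham Xmo (median -2.08), and none passed the test in any comparison.

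Ogn moved with this sum. Over 15 libraries r was 0.873 (permutation adjusted p = 0.00252 over 63 relations of 9 genes with 7 marker lists) and rho was 0.796 (adjusted p = 0.0365). Without sham Xmo 3 and 4, the libraries with the highest sums, r was 0.784, and within groups it was 0.801 (adjusted p = 0.114). It was the 1 relation of 63 that passed by Pearson r (5 passed on unscaled CPM), and leaving out any 1 library left it at 0.821 to 0.898. For the other 8 genes r with the choroid plexus sum ran from -0.11 (Foxc1) to 0.614 (Lum), and for Igf2 it was 0.512 (permutation adjusted p = 0.356; rho = 0.361, adjusted p = 0.398). Without sham Xmo 3 and 4, r of these 8 ran from 0.23 (Foxc1) to 0.606 (Igf2), with Dcn at 0.557. The highest Ogn and Igf2 levels were both in sham Xmo 4, the library with the highest sum. Whether RNA of choroid plexus contributes to the Ogn or Igf2 differences was not tested.

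**Figure D5:**
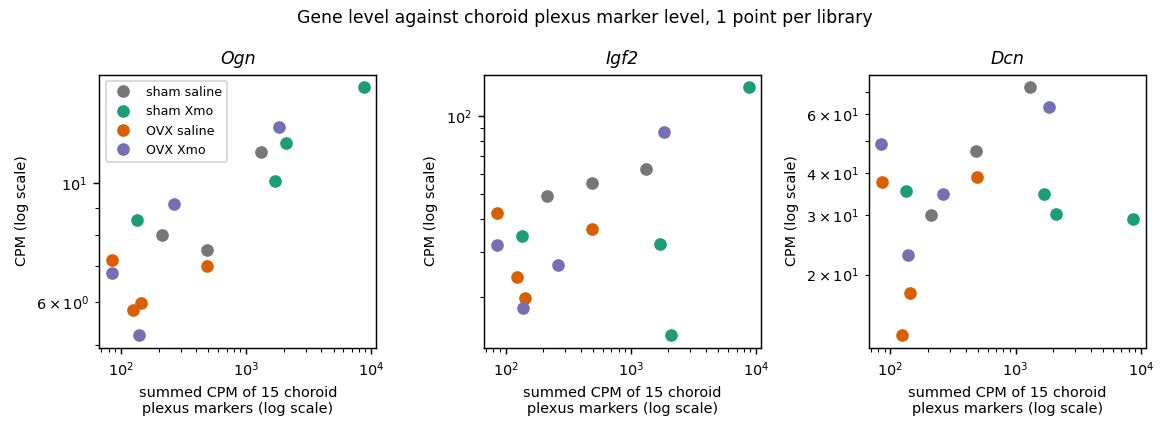
CPM of Ogn, Igf2 and Dcn (vertical axes, log scale) against the summed CPM of 15 choroid plexus markers (horizontal axis, log scale); each point is 1 of 15 mRNA libraries, coloured by group. Over the 15 libraries r is 0.873 for Ogn, 0.512 for Igf2 and 0.317 for Dcn. Without sham Xmo 3 and 4, r is 0.784 for Ogn, 0.606 for Igf2 and 0.557 for Dcn.

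The 9 ependymal markers, of the cells that line the ventricle, summed to 24.7 to 48.9 CPM in sham saline, 38.7 to 87.6 CPM in sham Xmo, 27.9 to 45.5 CPM in OVX saline and 28.2 to 47.0 CPM in OVX Xmo. All 9 estimates were above 0 in sham Xmo against sham saline (median 0.81). All 9 were below 0 in OVX Xmo against sham Xmo (median -1.17) and in the interaction (median -1.11). In OVX Xmo against OVX saline 8 of the 9 were below 0 (median -0.33), and in OVX saline against sham saline 4 were (median 0.04). None passed in any comparison. By rank Lum followed this sum (rho = 0.743, permutation adjusted p = 0.0412), but not by r (0.622, adjusted p = 0.292; 0.472 without sham saline 3 and sham Xmo 2).

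The 12 endothelial markers summed to 308 to 450.0 CPM in sham saline, 252 to 310.1 CPM in sham Xmo, 235 to 263 CPM in OVX saline and 264 to 291 CPM in OVX Xmo. In OVX saline against sham saline 3 of the 12 fell, namely Sox17 by 1.20 (SE 0.23, edgeR adjusted p = 0.0165), Flt1 by 0.54 (SE 0.12, adjusted p = 0.0265) and Ly6c1 by 1.44 (SE 0.35, adjusted p = 0.03), and Flt1 fell by 0.55 (SE 0.12, adjusted p = 0.0418) in sham Xmo against sham saline. Igf2 followed the endothelial sum by rank (rho = 0.754, permutation adjusted p = 0.0412) but not by r (0.58, adjusted p = 0.292; 0.72 without sham saline 1 and 2). Sox17 was lost without sham saline 3 (adjusted p = 0.0614). The Flt1 call in the first comparison was lost without sham saline 1 or 3 or OVX saline 1, 2 or 4 (largest adjusted p 0.103), and that in the second without sham saline 1 or 3, sham Xmo 2, 3 or 4 or OVX saline 2 (largest 0.188). Ly6c1 was lost without sham saline 2 or any OVX saline library (largest 0.161). Igf2, Foxc1, Foxc2 and Ogn were the members lower without overlap in OVX saline against sham saline, and the part of endothelial RNA in that was not tested.

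Sums of the other lists overlapped more. Pericyte and smooth muscle markers summed to 273 to 371 CPM in sham saline and 235 to 280.1 CPM in OVX saline. Between these groups 6 of the 10 estimates were above 0 and 4 below, at a median of 0.08. Only Rgs5 passed there, falling by 0.58 (SE 0.13, edgeR adjusted p = 0.0244). That call was lost without sham saline 2 or 3 or OVX saline 2, 3 or 4 (largest adjusted p 0.0873). Of 10 astrocyte markers, Fgfr3 rose by 0.57 (SE 0.16, edgeR adjusted p = 0.049) and Sox9 fell by 0.57 (SE 0.16, adjusted p = 0.0493) in OVX saline against sham saline. Fgfr3 was lost in 13 of the 15 runs that left out 1 library and Sox9 in 9 of them (largest adjusted p 0.149 and 0.148, both without sham saline 3). Of 11 oligodendrocyte markers, Mog rose by 0.70 (SE 0.15, edgeR adjusted p = 0.0326) in sham Xmo against sham saline and was lost in 7 of those runs (largest 0.157). No pyramidal neuron marker of 10 passed. No relation of the 9 genes with these 4 lists passed by r or by rho.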

How the data were processed

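The deposited gene table holds whole-number counts and TPM per gene and library; both were made by the authors, and the miRNA table holds deposited read counts per mature miRNA. FastQC 0.11.2, Trimmomatic 0.36, Bowtie2 2.3.2, StringTie 1.3.3b and the build GRCm38.p6 are named in the submitters' processing notes, without their roles; the sources used here do not say whether strand entered the counting. Another 12 columns of the gene table matched no sample described here and were not used.

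Counts were tested with edgeR 4.0.16 (R 4.3.3; quasi-likelihood, TMM, filterByExpr by group, prior count 2 for log2 levels), with all 15 mRNA libraries in 1 fit (11 residual degrees of freedom) and a separate fit of 12 miRNA libraries; genes were called at a Benjamini-Hochberg adjusted p under 0.05. DESeq2 1.42.0 was an alternative. The script was tested on simulated counts. Correlations used two-sided permutation tests. TPM were logged after adding 0.1. The miRNA and marker alternatives were chosen after seeing the data.

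The members and the gene lists were chosen with earlier results of these data known. Named are all 9 members, from each list at most 4 genes past the test per comparison by smallest p, and for each member the 3 genes with the highest r. For Dcn and Foxc2, 1 of the 3 is not reported here. Kera, Epyc, Omd, H19, Wnt6, Steap1, Cyp26a1 and Cyp26c1 were named for their position or low counts, after their values were seen. The depth, 20848661 to 39140593 counts per mRNA library, leaves Foxc2 at 4 to 38 counts.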

Additional observations from a re-analysis of the deposited data

How the results depend on the processing

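No member passed under any alternative: DESeq2, DESeq2 size factors in edgeR, leaving out the mitochondrial genome, no filter, the replicate block, a fit on the 2 groups compared, and leaving out each library. Of 936 alternative estimates of members, 903 kept their sign and 33 did not. The cause was not tested. With the replicate block Foxc2 in sham Xmo against sham saline was 0.047 in place of -0.18 (adjusted p = 0.976); the other 32 were in runs that left out 1 library. Replicate numbers are shared by the groups but did not pair the samples: same-numbered libraries had a mean r of deviations of -0.029 (21 pairs), against 0.0097 for other pairs (63), and 2 of 15 libraries correlated best with their own number, a hint from the data and not the design. In each case below, the range is over runs without 1 library.

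For OVX saline against sham saline the range was -0.39 to 0.56 for Lum, -0.27 to 0.11 for Ptgds and -0.000514 to 0.48 for Slc6a13. For OVX Xmo against OVX saline it was -0.013 to 0.51 for Slc6a13 and -0.26 to 0.65 for Igf2. In sham Xmo against sham saline Igf2 ran from -1.06 to 0.21. For OVX Xmo against sham Xmo it was -0.032 to 0.64 for Foxc2, -0.15 to 0.29 for Slc6a13, -1.03 to 0.59 for Igf2 and -0.36 to 0.018 for Aldh1a2. In the interaction it was -0.21 to 0.23 for Ogn, -0.37 to 0.024 for Ptgds, -0.41 to 0.11 for Slc6a13, -0.16 to 1.46 for Igf2 and -0.15 to 0.52 for Aldh1a2.

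Members without overlap in OVX saline against sham saline went from 4 to 1 on unscaled CPM and 0 on deposited TPM. Runs without 1 library gave 0 to 1 in OVX Xmo against OVX saline, 2 to 5 in sham Xmo against sham saline and 0 to 1 in OVX Xmo against sham Xmo. The share of all genes was not taken in these settings. Leaving out a library can only keep or raise such a count, for any set of genes. Correlated pairs went from 6 to 23 on deposited TPM and 0 on deviations from group means, and from 0 to 10 without 1 library. Relations with marker lists went from 1 to 5 on unscaled CPM, 3 by rho and 0 on deviations, and from 1 to 2 without 1 library. miR-483-5p kept its sign and stayed above the threshold in all of its alternatives. With the replicate block, every call of a list gene was lost except Sox17. Without the filter OVX saline against sham saline lost Fgfr3, Sox9, Foxf2, Igf1r and Rxrb. Sham Xmo against sham saline lost Flt1 and Igf1r. Fits on the 2 groups compared lost Fgfr3, Sox9, Ly6c1, Foxf2 and Rgs5 in the first comparison. In the second they lost Flt1, Igf1r and Mog. DESeq2 size factors in edgeR lost Fgfr3.

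Over all genes, calls in OVX saline against sham saline went from 1246 to 178 with the replicate block, 568 without the filter and 2240 by DESeq2 (80 to 1706 without 1 library). In sham Xmo against sham saline they went from 302 to 37 with the block, 108 without the filter, 6 on 2 groups and 1021 by DESeq2 (14 to 673). Calls in OVX Xmo against OVX saline were 0, 1 on 2 groups and 3 by DESeq2 (0 to 1). Calls in OVX Xmo against sham Xmo were 2, 0 with the block or on 2 groups and 76 by DESeq2 (0 to 3). In the interaction they went from 83 to 11 with the block, 20 without the filter and 724 by DESeq2 (6 to 302).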
